A study of Mus musculus with 12 samples.

Results

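Fragments of the cytosolic lysine tRNAs were followed through 12 small RNA libraries of mouse sperm and of TM4 cells. They were taken as every row of the mature tRNA class whose name begins with tRNA-Lys, which gave 2 of the 51 isoacceptors listed, mature-tRNA-Lys-CTT and mature-tRNA-Lys-TTT, called Lys-CTT and Lys-TTT below. Each isoacceptor was divided into 5′ fragments (tRF5), 3′ fragments with or without the CCA tail (tRF3) and all remaining fragments (other), so that 6 of 153 tRNA-derived fragments (tRFs) are described, and all 6 passed the filter on low counts in every comparison. Levels are given in RPM, in which the reads of a fragment are scaled by the reads of its library that were not assigned to rRNA.

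The sperm libraries came from the epididymis of male C57BL/6J mice fed from 4 weeks of age for 7 weeks with the control diet (CD, 16% of kcal from fat, n = 3) or a high-fat diet (HFD, for which the labels give 69% of kcal from fat and the methods a lower share, n = 3), and each library pooled the sperm of 3 mice. TM4 is an established mouse Sertoli cell line, and Sertoli cells are the somatic cells that nurse the germ cells in the testis tubules. The TM4 libraries were made from non-treated cells (Ctrl, n = 2), from cells given 10 µM Compound C (CC), an inhibitor of the energy-sensing kinase AMPK, for 12 h (n = 2), and from cells that overexpressed angiogenin (Ang OE, n = 2), a ribonuclease that cuts tRNAs in the anticodon loop. These comparisons ask whether diet, AMPK inhibition and the nuclease change the tRNA fragments. Angiogenin itself cannot be read from small RNA libraries, so the overexpression was not checked here. The methods describe an expression plasmid for angiogenin, and no library is labelled as cells given an empty plasmid. Delivery of the plasmid and angiogenin therefore cannot be told apart in the comparisons of Ang OE with Ctrl or with CC.

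Lysine is decoded by a pair of tRNAs: the CTT anticodon reads AAG codons, and the TTT anticodon, whose first base is heavily modified in the cell, reads mainly AAA. Cleavage in the anticodon loop parts the tRNA into a 5′ and a 3′ fragment, and shorter fragments come from cuts in the other loops. The CCA end is added after transcription and is where the amino acid is attached, so a 3′ fragment that carries it reaches the end of the mature tRNA. 5′ fragments of a few tRNAs, mainly those for glycine, glutamate and valine, are abundant in mouse sperm.

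A search of GRCm39 by tRNA structure found 10 genes for Lys-CTT and 9 for Lys-TTT whose 20 stem pairs were all intact, and the most frequent forms are printed because they show how far a read can be assigned to either isoacceptor. The capitals mark the anticodon, bases 34 to 36 counted from 1 at the 5′ end, and the CCA tail is not encoded in the genome. The first Lys-CTT form had 7 copies, for example chr17:23766334-23766406 on the plus strand in an exon of n-TKctt14, and the second had 2, for example chr9:90008562-90008634 on the minus strand, in an intron of the lncRNA Gm69975, which lies on the opposite strand. The first Lys-TTT form had 6 copies, for example the intergenic chr11:69016002-69016074 on the minus strand, and the second had 2, for example chr7:28493413-28493485 on the minus strand, inside an intron of Rinl, which is transcribed from the opposite strand.
Lys-CTT form 1: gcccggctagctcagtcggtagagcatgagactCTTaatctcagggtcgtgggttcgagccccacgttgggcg
Lys-CTT form 2: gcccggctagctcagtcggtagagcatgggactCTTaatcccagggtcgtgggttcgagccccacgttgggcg
Lys-TTT form 1: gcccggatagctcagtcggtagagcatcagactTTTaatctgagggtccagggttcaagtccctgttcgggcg
Lys-TTT form 2: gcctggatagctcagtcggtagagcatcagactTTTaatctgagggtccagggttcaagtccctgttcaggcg

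The first forms of the isoacceptors were identical at 61 of 73 bases. In the 5′ part before the anticodon they differed only by C7A and G28C, written from Lys-CTT to Lys-TTT, so bases 8 to 27 form a shared run of 20 nt. Any fragment that starts at the 5′ end and passes base 7 can therefore be told apart by its letters between these forms, whereas a short internal fragment within the run cannot. The 3′ part after the anticodon held 9 differences, and most of those that a 3′ fragment would cover lay in the T arm (G49C, T50A, G57A, C60T, A64T, C65G) and in the acceptor stem (G66T, T68C). The annotation allowed 1 mismatch, so the letters alone do not fix how a read was assigned. The tRF5 and tRF3 counts of both isoacceptors were whole numbers in 12 of 12 libraries, within 0.005 of a read, while those of the other class carried fractions of reads in 12 of 12 libraries. Of the 19 genes, 8 were intergenic, 9 intronic and 2 exonic in the GENCODE annotation, and copies with the same sequence cannot be told apart by any read.

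The libraries held 31710445 to 41532413 clean reads for sperm and 51457711 to 64038150 for TM4 cells, and 55979 to 108623 and 188404 to 514304 of these, respectively, were tRNA-Lys reads. Wilson 95% intervals of the shares of tRF5, tRF3 and other fragments in the reads of each isoacceptor were at most 1.41 percentage points wide in sperm and 0.621 in TM4 cells, and they cover counting error only. In sperm all 6 germ cell miRNAs listed as markers were detected, but 3 of them, mir-34b, mir-34c and mir-449a, were also present in TM4 cells, with mir-34c at 722 to 1329.6 RPM in sperm and 503 to 1277 RPM in TM4 cells. The other 3, mir-741, mir-871 and mir-880, were at or near 0 in TM4 cells, with mir-741 at 66.1 to 317 RPM in sperm against at most 0.0917 RPM there. Sperm libraries also held the epithelial markers of the mir-200 family (4480.4 to 7580 RPM summed over 5 precursors, against 0.719 to 1.55 in TM4) and the red blood cell marker mir-451a (596 to 1212 RPM, against 0.101 to 0.561), so RNA of other cells was present. Its part in the results was not tested. In such bulk libraries, fewer cells of a type and less RNA per cell cannot be told apart. One library of the CC group, replicate 2, stood apart, with 7.15% of its mature tRNA reads in tRF5 against 22.4% to 63.0% in the remaining TM4 libraries. The fold changes that moved most without it are given beside the results.

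tRNA-Lys was a minor family in sperm and a leading one in TM4 cells. It took 1.55% to 2.99% of the mature tRNA reads in the 6 sperm libraries, where it ranked 7 of 23 families in each. In TM4 cells it took 20.99% and 18.2% in Ctrl, 20.2% and 14.8% in CC and 19.7% and 19.03% in Ang OE, and it ranked between 1 and 3. The ranges of the sources do not overlap. Total tRNA moved the other way, at 107544 to 165866 RPM in sperm and 22658 to 49568 RPM in TM4 cells. Glycine was the largest family in sperm, with 44.8% to 57.1% of the mature tRNA reads.

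The isoacceptors differed in the fragment classes their reads fell into. In TM4 cells most Lys-CTT reads were tRF5, except in CC replicate 2, where 69.3% were of the other class. Of the Lys-TTT reads, 89.0% to 90.6% were of the other class in TM4 cells. The Lys-CTT tRF5 made up 63.4% and 55.2% of Lys-CTT reads in Ctrl, 57.3% and 27.05% in CC and 71.2% and 72.5% in Ang OE. The Lys-TTT tRF5 made up 5.45% and 4.39% of Lys-TTT reads in Ctrl, 4.62% and 2.00% in CC and 6.65% and 7.27% in Ang OE. The Lys-CTT share exceeded that of Lys-TTT in all 6 TM4 libraries. In sperm the shares lay closer together, at 16.1% to 33.5% for Lys-CTT and 10.9% to 16.1% for Lys-TTT, and the Lys-CTT share was the higher in all 6 libraries. Over all mature tRNA reads the order of the sources was the reverse of that of Lys-CTT: tRF5 took 63.7% to 79.8% in sperm and 7.15% to 63.0% in TM4 cells. These values are set side by side in the plot of tRF5 shares, together with the median of the 47 isoacceptors outside tRNA-Lys that had at least 100 reads in every library, which was 7.53% to 13.5% in sperm and 0.768% to 3.09% in TM4 cells.

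**Figure D1:**
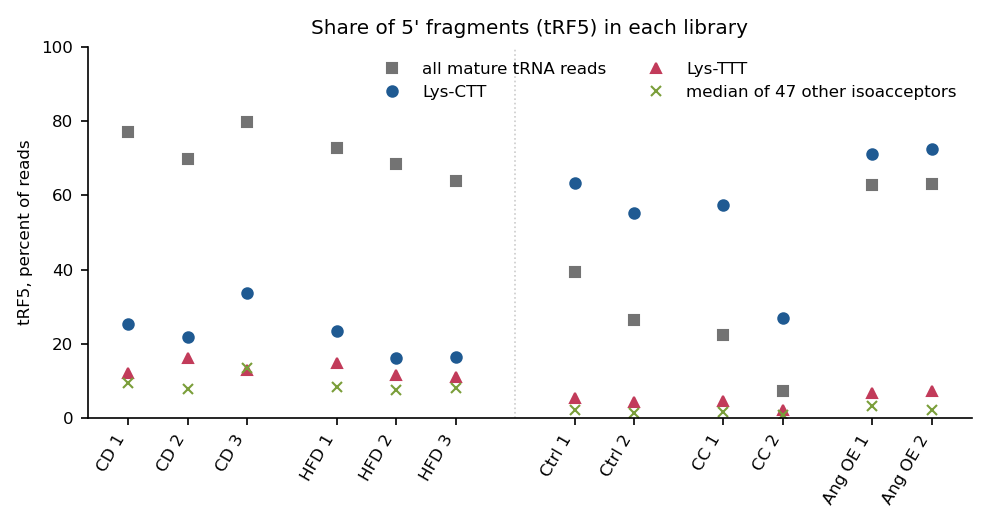
The share of reads in tRF5 (percent, y axis) in each of the 12 libraries (x axis, sperm left and TM4 cells right of the dotted line) for all mature tRNA reads, for Lys-CTT, for Lys-TTT and as the median of 47 other isoacceptors. Lys-CTT lies far below the share of all tRNA reads in sperm and above it in every TM4 library, and Lys-TTT stays at or below 16.1% throughout.

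The level of Lys-CTT tRF5 was 495, 368 and 699 RPM in the CD libraries and 463, 363 and 461 RPM in the HFD libraries. In TM4 cells it was 2473 and 1353 RPM in Ctrl, 2146 and 481 RPM in CC and 3790.4 and 5253 RPM in Ang OE. The lowest TM4 library, CC replicate 2, lay within the sperm range, and all remaining TM4 libraries lay above it. Among the tRF5 of the 51 isoacceptors it ranked 8 to 14 in sperm and 1 to 3 in TM4 cells.

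Lys-TTT tRF5 was far lower and overlapped between the sources. It was 75.2, 106 and 62.1 RPM in the CD libraries, 82.8, 104 and 116 RPM in the HFD libraries, 103 and 73.2 RPM in Ctrl, 81.2 and 43.6 RPM in CC and 129 and 159 RPM in Ang OE. The sources overlap, with CC replicate 2 the lowest of all 12 libraries and both Ang OE libraries the highest. The ratio of Lys-CTT tRF5 to Lys-TTT tRF5 was accordingly 3.47 to 11.3 in sperm, while in TM4 cells it was 23.97 and 18.5 in Ctrl, 26.4 and 11.04 in CC and 29.4 and 33.03 in Ang OE.

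The remaining fragments, which start and end inside the tRNA or are otherwise in neither end class, had another pattern. The other class of Lys-CTT was 1431, 1290.3 and 1357 RPM in the CD libraries, 1444, 1845 and 2297 RPM in the HFD libraries, 1398 and 1069 RPM in Ctrl, 1567 and 1232 RPM in CC and 1514 and 1971 RPM in Ang OE, so that sperm and TM4 cells overlap. The other class of Lys-TTT was 495, 506 and 386 RPM in the CD libraries and 402, 739 and 886 RPM in the HFD libraries, against 1708 and 1498 RPM in Ctrl, 1565 and 1963 RPM in CC and 1753 and 1971 RPM in Ang OE. For Lys-TTT every TM4 library lay above every sperm library, and its other class ranked 1 to 3 of 51 in TM4 cells and 12 to 16 in sperm. For scale, 29.4% of all 143 tRFs tested were called lower in CD sperm than in Ctrl TM4 cells (edgeR adjusted p under 0.05).

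**Figure D2:**
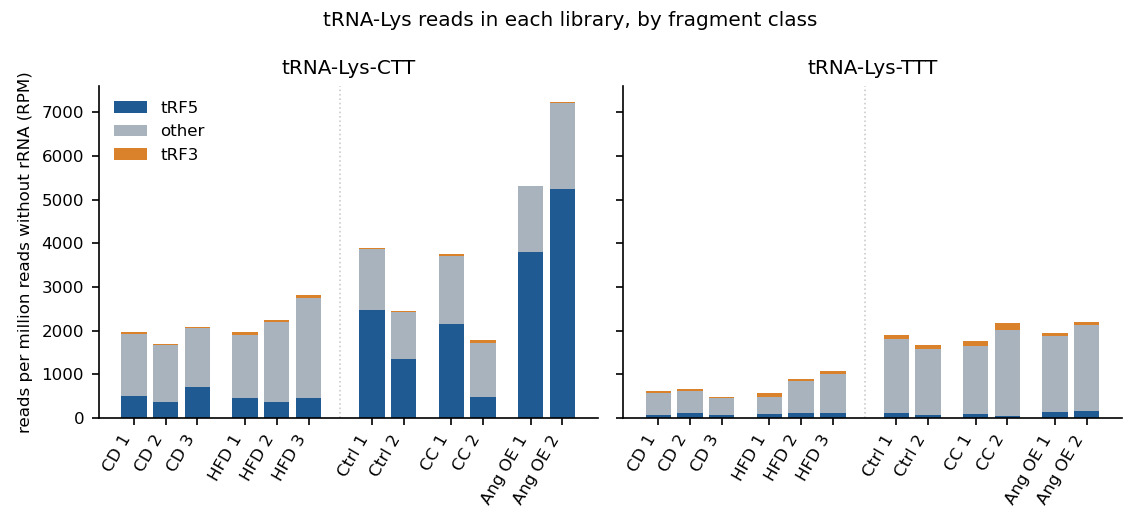
Stacked bars of the RPM (y axis, from 0) of Lys-CTT (left) and Lys-TTT (right) in each library, divided into tRF5, other and tRF3. For Lys-CTT, tRF5 is the largest class in every TM4 library (1353 to 5253 RPM) except CC replicate 2, where the other class is larger (1232 RPM against 481 RPM of tRF5), and the Lys-TTT bars are set mainly by the other class.

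The 3′ fragments were the smallest class of Lys-CTT in every library and of Lys-TTT in all but 3 TM4 libraries (Ctrl replicate 2 and both CC libraries), where they exceeded tRF5. Most of them ended in the CCA tail. Lys-CTT tRF3 was 39.3, 40.6 and 28.2 RPM in the CD libraries, 64.3, 39.9 and 51.1 RPM in the HFD libraries, 26.7 and 29.4 RPM in Ctrl, 32.7 and 64.9 RPM in CC and 19.8 and 20.5 RPM in Ang OE. Lys-TTT tRF3 was 45.5, 50.1 and 37.1 RPM in the CD libraries, 74.2, 45.2 and 64.8 RPM in the HFD libraries, 81.4 and 95.8 RPM in Ctrl, 112 and 173 RPM in CC and 53.2 and 57.6 RPM in Ang OE. Within TM4 cells both isoacceptors had the same order of groups without overlap, with CC the highest and Ang OE the lowest. Against Ctrl, 55.9% of all 143 tRFs were higher in CC and 42% lower in Ang OE without overlap. The order was also that of tRF3 of other tRNAs, such as Gln-TTG and Leu-AAG, though not of all, for example not of Val-TAC. Fragments without the tail were between 0.443 and 4.53 RPM in all libraries.

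The source of the cells was compared between the untreated groups, CD sperm and Ctrl TM4 cells. Of the 6 Lys tRFs, 3 were lower in sperm at an adjusted p under 0.05 in edgeR's quasi-likelihood test and none was higher, beside 29.4% of all 143 tRFs tested called lower and 83.9% called in either direction. Lys-CTT tRF5 was lower in sperm by 1.88 ± 0.38 on the log2 scale (log2 fold change -1.88, SE 0.38, edgeR adjusted p = 2.12e-06). The other class of Lys-TTT had a log2 fold change of -1.79 ± 0.38 (edgeR adjusted p = 4.24e-06), and Lys-TTT tRF3 of -1.002 ± 0.33 (edgeR adjusted p = 0.00286). The other 3 Lys tRFs did not pass, with log2 fold changes of 0.36 ± 0.32 for Lys-CTT tRF3, 0.14 ± 0.39 for the Lys-CTT other class and -0.12 ± 0.33 for Lys-TTT tRF5. Over all tRFs tested the median was 1.17. By class it was 2.58 for tRF5, -1.67 for tRF3 and 1.56 for the other class. Both Lys tRF3 thus lay above the median of their class.

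Of 7 tRF5 known to be abundant in mouse sperm (Gly-GCC, Gly-CCC, Glu-CTC, Glu-TTC, Val-CAC, Val-AAC and His-GTG), 6 were higher in sperm and Gly-CCC, at -1.19, was lower, so Lys-CTT tRF5 did not share the direction of most of this list. The call for Lys-TTT tRF3 was lost without CD replicate 1 (edgeR adjusted p = 0.0518) and without Ctrl replicate 2 (edgeR adjusted p = 0.0523). With scaling factors taken from the tRFs themselves, all 6 Lys tRFs were called lower in sperm, among them Lys-CTT tRF3 (-0.88) and the Lys-CTT other class (-1.03), whose signs turned. This scaling moved the median of all tRFs from 1.17 to -0.12, a shift of about the same size as that of these values, and 41.3% of all tRFs were called lower under it. Summed over fragments, Lys-TTT was lower in sperm (log2 fold change -1.60 ± 0.32, edgeR adjusted p = 4.63e-06) and Lys-CTT less so (-0.73 ± 0.34, edgeR adjusted p = 0.0489), beside 72% of 50 isoacceptors called. The Lys-CTT total lost its call when any 1 of the 3 CD libraries or Ctrl replicate 1 was left out, at edgeR adjusted p between 0.0502 and 0.469. Sperm and a cell line differ in source and in preparation, which cannot be told apart here.

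No Lys tRF passed the test between the diets. Of the 6 tRFs, 0 passed an adjusted p under 0.05 in edgeR or in DESeq2, beside 0% of all 142 tRFs, and at an unadjusted p under 0.05, 0 of the 6 Lys tRFs passed beside 16.2% of all tRFs. Log2 fold changes of HFD against CD were 0.52 ± 0.31 for Lys-CTT tRF3, 0.45 ± 0.33 for the Lys-CTT other class, 0.55 ± 0.35 for the Lys-TTT other class, 0.47 ± 0.31 for Lys-TTT tRF3 and 0.31 ± 0.33 for Lys-TTT tRF5. These 5 values lay near the median of all tRFs, 0.44, and 91.5% of all tRFs were above 0. Lys-CTT tRF5 was on the other side, at -0.28 ± 0.35 (95% interval -0.97 to 0.41), and ranked 137 of 142 from the highest log2 fold change. Of the 7 tRF5 abundant in sperm, 0 were called and their median was -0.31, so the 5′ fragments of that list also lay below the median of all tRFs.

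The other class of Lys-CTT was the only Lys tRF whose diet groups did not overlap, with all 3 HFD libraries (1444 to 2297 RPM) above all 3 CD libraries (1290.3 to 1431 RPM), beside 26.8% of all tRFs that were higher without overlap. Part of the markers of other cells moved with it: the epithelial miRNAs summed to 4791, 5089.8 and 4484 RPM in the CD libraries and 4480.4, 6060.4 and 7580 RPM in the HFD libraries, and the smooth muscle miRNAs to 26305, 20554 and 16155 RPM and to 15332, 27960.3 and 29689 RPM. HFD replicates 2 and 3 were the highest of the sperm libraries in both sums and in the Lys-CTT other class. Of the 5 epithelial precursors, mir-141, mir-200a and mir-429 had this order, and mir-200b and mir-200c did not. Of the 2 smooth muscle precursors, mir-143, which makes up nearly all of the sum, had it and mir-145a did not. In HFD replicate 2 mir-200c and mir-145a were at their lowest, 653 and 173 RPM. The sum of the red blood cell miRNAs did not follow this order either. It was 15751, 12630.4 and 16586 RPM in the CD libraries and 25341, 19443 and 13352 RPM in the HFD libraries, nearly all of it mir-486a and mir-486b. On that list mir-144 did have the order, at 144 and 127 RPM in HFD replicates 2 and 3 and at most 88.2 RPM in other sperm libraries. All 3 HFD libraries had more mir-451a (1212, 1156 and 980 RPM) than all 3 CD libraries (596, 762 and 930 RPM). The germ cell miRNAs summed to 1515, 4024 and 2309 RPM in the CD libraries and 2054, 1670 and 1827 RPM in the HFD libraries. Of these precursors, mir-34b, mir-741 and mir-871 were lowest in HFD replicates 2 and 3, and mir-34c, mir-449a and mir-880 were not. There mir-871 was at 405 and 336 RPM, against 481 to 2069 RPM in the remaining sperm libraries. For mir-741 the margin was narrow, at 66.1 and 66.9 RPM against 67.0 RPM in CD replicate 1. The part of these markers in the result was not tested. With TMM scaling over tRFs, which moved the median of all tRFs to -0.08, the Lys-CTT other class (-0.11), Lys-TTT tRF5 (-0.19) and Lys-TTT tRF3 (-0.04) turned their sign. The isoacceptor totals did not pass, at 0.29 ± 0.27 for Lys-CTT (edgeR adjusted p = 0.341) and 0.51 ± 0.28 for Lys-TTT (edgeR adjusted p = 0.130), beside 0% of 50 isoacceptors called and a median of 0.54. Without CD replicate 2, the Lys-TTT total passed (0.61, edgeR adjusted p = 0.0413), in a fit that called 29 of 50 isoacceptors and had a median of 0.67.

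The composition of the tRNA-Lys reads was compared between the diets over 10 shares and ratios. None passed the exact 2-sided permutation test, which cannot give a p under 0.1 with 3 libraries against 3. The widest gap was in the share of tRF5 among Lys-CTT reads, 25.2%, 21.7% and 33.5% in CD and 23.5%, 16.1% and 16.4% in HFD. CD replicate 2 lay below HFD replicate 1, so the groups overlap. The means were 26.8% ± 6.09 (SD, n = 3) and 18.7% ± 4.17 (SD, n = 3), with an exact permutation p of 0.2 and a Benjamini-Hochberg adjusted p of 0.667. For Lys-TTT the tRF5 share was 13.7% ± 2.07 in CD and 12.5% ± 2.08 in HFD (SD, n = 3, exact permutation p = 0.5, adjusted p = 0.833). The share of tRF3 in Lys-TTT reads was 7.39%, 7.57% and 7.65% in CD and 13.3%, 5.09% and 6.07% in HFD, so HFD replicate 1 stood above and the 2 remaining HFD libraries below the CD group. The same library had the highest Lys-CTT tRF3 share of the sperm libraries, 3.26%. The tRF5 share over all tRNA reads was 77.1%, 69.8% and 79.8% in CD and 72.7%, 68.3% and 63.7% in HFD.

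**Figure D3:**
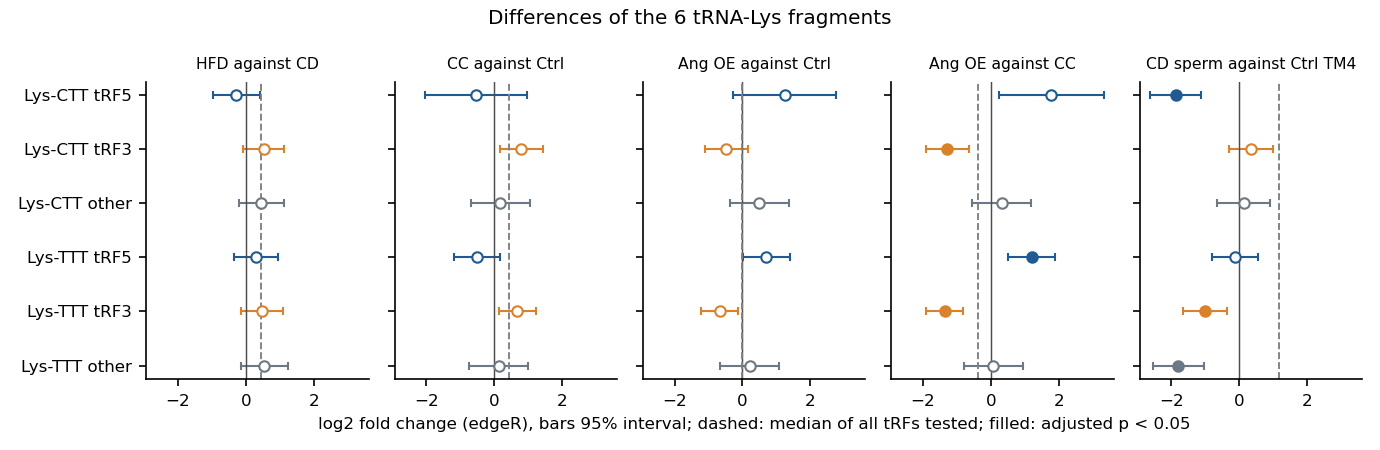
Log2 fold changes (x axis) of the 6 tRNA-Lys fragments (y axis) in 5 comparisons, from edgeR, with 95% intervals as bars. Filled points passed an adjusted p under 0.05, and the dashed line is the median of all tRFs tested, 0.44 for HFD against CD. In TM4 cells the tRF5 of both isoacceptors lie on the opposite side of 0 from the tRF3 in each comparison, except that Lys-CTT tRF5 turns to 0.17 for CC against Ctrl without CC replicate 2. The medians of all tRF5 and of all tRF3 also lie on opposite sides of 0 in each TM4 comparison. Under TMM scaling over tRFs, signs turned for Lys-CTT tRF3 and the Lys-CTT other class between the sources, for 3 tRFs between the diets and for the other classes in CC against Ctrl.

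Compound C was set against non-treated TM4 cells. No Lys tRF passed: 0 of 6 at an adjusted p under 0.05 in edgeR, beside 0.699% of 143 tRFs, 0 of 6 in DESeq2, beside 4.2%, and 2 of 6 at an unadjusted p under 0.05 beside 27.3%. Those 2 were the 3′ fragments, higher in both CC libraries than in both Ctrl libraries. Lys-CTT tRF3 had a log2 fold change of 0.80 ± 0.32 (edgeR adjusted p = 0.156) and Lys-TTT tRF3 of 0.68 ± 0.27 (edgeR adjusted p = 0.156), beside 55.9% of all tRFs that were higher without overlap and a median of 0.43. The tRF5 had negative values, at -0.54 ± 0.75 for Lys-CTT (edgeR adjusted p = 0.611) and -0.50 ± 0.34 for Lys-TTT (edgeR adjusted p = 0.326). Over the tRFs of all tRNAs the class medians were -0.42 for tRF5, 0.59 for tRF3 and 0.32 for the other class. The Lys tRF5 and tRF3 thus had the signs of their classes. The other classes were at 0.18 ± 0.44 and 0.14 ± 0.43, and the totals at -0.20 ± 0.52 for Lys-CTT and 0.15 ± 0.46 for Lys-TTT, neither called (edgeR adjusted p = 0.774 and 0.799) beside 1.96% of 51 isoacceptors.

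Of the marker lists, the red blood cell sum was lower in CC without overlap (1152 and 1091 RPM against 1607 and 1639 RPM), nearly all of it mir-486a and mir-486b. On that list mir-451a overlapped, at 0.561 and 0.168 RPM in CC and 0.160 and 0.252 RPM in Ctrl. The germ cell, epithelial and smooth muscle sums overlapped between CC and Ctrl. Their part in the result was not tested.

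The values of CC against Ctrl rest in part on CC replicate 2. Without it, Lys-CTT tRF3 was at 0.22 (edgeR adjusted p = 0.757) and Lys-TTT tRF3 at 0.33 (edgeR adjusted p = 0.723). Without it the log2 fold change of Lys-CTT tRF5 was 0.17, and without CC replicate 1 it was -1.99 (edgeR adjusted p = 0.0612). Without CC replicate 1, 3 of 6 Lys tRFs were called, Lys-CTT tRF3 at 1.21, Lys-TTT tRF3 at 0.96 and Lys-TTT tRF5 at -1.02, in a fit that takes the lone library to vary like the other groups. In that fit 22.4% of all tRFs were called higher and 6.29% lower. The methods describe an adjustment for batches by ComBat-seq but the labels name no batch; with the replicate number taken as the batch, both tRF3 were called, at 0.71 and 0.65 (edgeR adjusted p = 0.0454 and 0.0268), beside 30.1% of all tRFs called higher.

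Ang OE was set against the same Ctrl libraries, so the CC and Ang OE comparisons are not independent. At an adjusted p under 0.05, 0 of 6 Lys tRFs passed in edgeR, beside 10.5% of 143 tRFs, and 0 in DESeq2 with the same library sizes, beside 22.4%. At an unadjusted p under 0.05 in edgeR, 1 of 6 passed beside 35.7%. Lys-CTT tRF5 had the widest difference, with a log2 fold change of 1.24 ± 0.76 (edgeR adjusted p = 0.258), and both Ang OE libraries, at 3790.4 and 5253 RPM, lay above both Ctrl libraries, at 2473 and 1353 RPM. Lys-TTT tRF5 was at 0.71 ± 0.34 (edgeR adjusted p = 0.165). Lys-TTT tRF3 was at -0.68 ± 0.27 (edgeR adjusted p = 0.119) and Lys-CTT tRF3 at -0.48 ± 0.32 (edgeR adjusted p = 0.294). The other classes were at 0.50 ± 0.44 for Lys-CTT and 0.22 ± 0.44 for Lys-TTT. In all, 4 of the 6 were higher and 2 lower without overlap of the groups, beside 35.7% of all tRFs higher and 42% lower in that way. The median of all tRFs was -0.014. By class it was 0.63 for tRF5, -0.65 for tRF3 and 0.097 for the other class, so the Lys tRFs had the signs of their classes.

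Of the 7 tRF5 abundant in sperm, 0 were called in this comparison, with a median of 1.56. Over the Lys-CTT total the log2 fold change was 0.99 ± 0.52 (edgeR adjusted p = 0.111) and over the Lys-TTT total 0.21 ± 0.46 (edgeR adjusted p = 0.715), beside 41.2% of 51 isoacceptors called. Lys-TTT tRF3 was called with TMM scaling (-0.71, edgeR adjusted p = 0.0280) and when CC replicate 1 or 2 was left out of the shared fit (-0.68, edgeR adjusted p = 0.0427 and 0.0422), and with the replicate number as batch in ComBat-seq so were Lys-TTT tRF5 (0.76, edgeR adjusted p = 0.0430) and Lys-TTT tRF3 (-0.61, edgeR adjusted p = 0.0217). Of all tRFs, 28% were called in either direction with TMM scaling, 30.8% and 31.7% without CC replicate 1 or 2, and 44.1% with ComBat-seq. Marker miRNAs moved with this group: the 6 germ cell miRNAs summed to 1334 and 1195 RPM in Ang OE against 591 and 609 RPM in Ctrl, nearly all of it mir-34c, with mir-880 at 0 in every TM4 library. The smooth muscle miRNAs mir-143 and mir-145a summed to 61711 and 79792 RPM against 31248 and 29770.4 RPM, nearly all of it mir-143. The other marker of that list, mir-145a, was at 916 and 739.7 RPM in Ang OE and 682 and 701 RPM in Ctrl. The red blood cell list was lower, at 1164 and 1089.7 RPM against 1607 and 1639 RPM, nearly all of it mir-486a and mir-486b, with mir-451a at or below 0.257 RPM in these libraries. The epithelial sums overlapped, at 1.55 RPM or less. Their part in the result was not tested.

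The interventions were also compared with each other, Ang OE against CC. Here 3 of 6 Lys tRFs passed, beside 51.7% of 143 tRFs. Both 3′ fragments were lower in Ang OE, Lys-CTT tRF3 at a log2 fold change of -1.28 ± 0.32 (edgeR adjusted p = 0.0150) and Lys-TTT tRF3 at -1.36 ± 0.27 (edgeR adjusted p = 0.00964), beside 38.5% of all tRFs called lower. Lys-TTT tRF5 was higher, at 1.21 ± 0.35 (edgeR adjusted p = 0.0225), beside 13.3% of all tRFs called higher. Lys-CTT tRF5 had a larger fold change, 1.78 ± 0.77, but a wider spread, and did not pass (edgeR adjusted p = 0.0875). The other classes were at 0.32 ± 0.44 and 0.08 ± 0.43. The germ cell and smooth muscle marker sums in Ang OE, given above, also exceeded those in CC, which were 549.99 and 595 RPM and 30287 and 42667 RPM, while the red blood cell and epithelial sums overlapped, and their part in the result was not tested. The median of all tRFs was -0.38, that of all tRF5 1.02 and that of all tRF3 -1.28, so that the Lys tRF3 lay close to the median of their class.

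Of the 7 tRF5 abundant in sperm, 6 were called higher in Ang OE, with a median of 3.12, above the values of both Lys tRF5. The call for Lys-TTT tRF5 was lost without CC replicate 2 (0.83, edgeR adjusted p = 0.0817) and without Ang OE replicate 2 (1.05, edgeR adjusted p = 0.0537), while both tRF3 were called in each fit that left out a library. Without CC replicate 2 they were smaller, at -0.70 for Lys-CTT tRF3 (edgeR adjusted p = 0.0414) and -1.01 for Lys-TTT tRF3 (edgeR adjusted p = 0.0268). Without CC replicate 1, the library with the Lys-CTT tRF5 level nearer to Ctrl, Lys-CTT tRF5 was called at 3.23 (edgeR adjusted p = 0.00659), beside 15.4% of all tRFs called higher in that fit, and without CC replicate 2 its value was 1.08 (edgeR adjusted p = 0.233). The Lys-CTT total was higher in Ang OE (1.19 ± 0.52, edgeR adjusted p = 0.0439), beside 56.9% of 51 isoacceptors called, and the Lys-TTT total was at 0.07 ± 0.46 (edgeR adjusted p = 0.902). The call for the Lys-CTT total was lost with TMM scaling and when any 1 TM4 library other than CC replicate 1 was left out, at edgeR adjusted p between 0.0721 and 0.330.

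Most tRF3 reads carried the CCA tail, and the untailed ones shared their direction in some comparisons and not in others. In TM4 cells the tailed fragments of Lys-TTT were 76.9 and 93.3 RPM in Ctrl, 109 and 171 RPM in CC and 51.9 and 55.4 RPM in Ang OE. The untailed ones were 4.53 and 2.47 RPM in Ctrl, 2.49 and 1.58 RPM in CC and 1.29 and 2.24 RPM in Ang OE. For Lys-CTT the untailed fragments were 4.03 and 1.88 RPM in Ctrl, 1.70 and 1.01 RPM in CC and 1.13 and 1.01 RPM in Ang OE. Both Ctrl libraries thus lay above the CC libraries for Lys-CTT, the reverse of the tailed fragments. With the tailed fragments as a class of their own, CC against Ctrl gave 0.92 ± 0.33 for tailed and -1.12 ± 0.44 for untailed Lys-CTT, neither called (edgeR adjusted p = 0.157 and 0.175). Ang OE against CC gave -1.32 ± 0.34 for tailed and -0.34 ± 0.45 for untailed Lys-CTT, of which the first was called (edgeR adjusted p = 0.0173). The same held for Lys-TTT, at -1.39 ± 0.28 (edgeR adjusted p = 0.0108) and -0.20 ± 0.44. Ang OE against Ctrl gave -0.40 ± 0.33 for tailed and -1.46 ± 0.45 for untailed Lys-CTT, neither called (edgeR adjusted p = 0.375 and 0.0679). Between CD sperm and Ctrl, tailed Lys-CTT was at 0.47 ± 0.35 (edgeR adjusted p = 0.201) and the untailed was called lower in sperm, at -1.16 ± 0.41 (edgeR adjusted p = 0.00578). For Lys-TTT between the sources both were called lower in sperm, at -0.97 ± 0.33 and -1.91 ± 0.41 (edgeR adjusted p = 0.00480 and 8.32e-06). Both had the same sign, uncalled, for Lys-TTT in Ang OE against Ctrl (-0.67 and -0.98) and in HFD against CD for Lys-CTT (0.53 and 0.22) and Lys-TTT (0.47 and 0.37). The difference between tailed and untailed fragments was itself not tested.

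**Figure D4:**
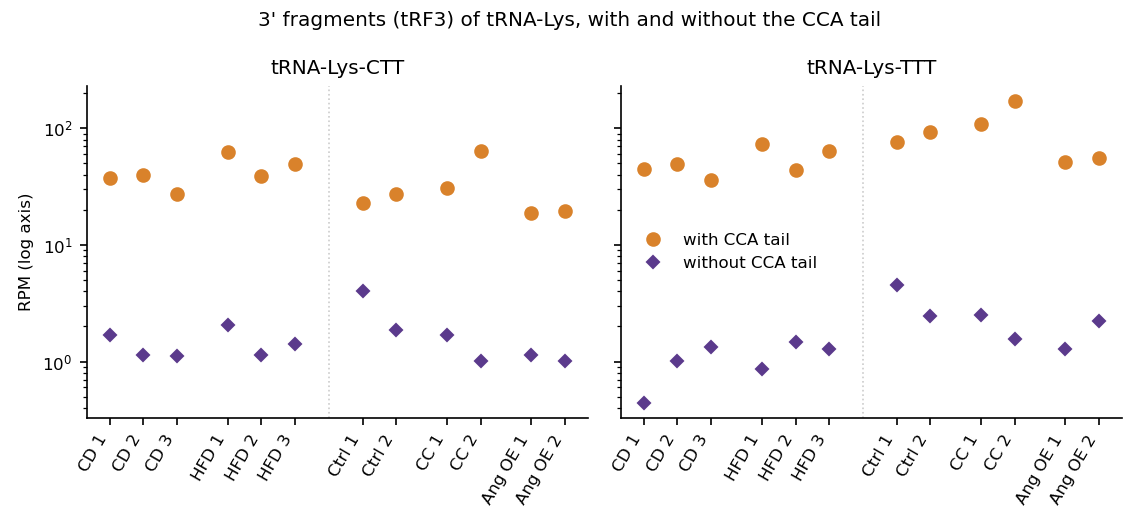
RPM on a log axis (y axis) of the 3′ fragments of Lys-CTT (left) and Lys-TTT (right) with and without the CCA tail in each library (x axis). Tailed fragments exceed untailed ones in every library, and in TM4 cells the tailed ones are highest in CC and lowest in Ang OE for both isoacceptors. The tRF3 of some other tRNAs, such as Gln-TTG and Leu-AAG, have this order of groups too.

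The isoacceptors also took unequal parts of the lysine reads. Lys-CTT held 76.1%, 71.97% and 81.1% of them in the CD libraries and 77.9%, 71.7% and 72.5% in the HFD libraries. In TM4 cells it held 67.3% and 59.5% in Ctrl, 68.1% and 44.9% in CC and 73.3% and 76.8% in Ang OE. Only in CC replicate 2 did Lys-TTT give more reads than Lys-CTT, and both Ang OE libraries lay above the Ctrl and CC libraries. The difference between the diets did not pass the exact permutation test (76.4% ± 4.59 against 74.0% ± 3.40, SD, n = 3, p = 0.6, adjusted p = 0.857). Reads without a match to the genome made up 0.00692% to 0.192% of tRNA-Lys reads in the 12 libraries, against 1.67% to 27.5% of all mature tRNA reads.

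Across the 12 libraries, with log2(RPM + 1) centred within sperm and within TM4 cells, the fragments whose levels ran most like Lys-CTT tRF5 among 130 tRFs were the tRF5 of Glu-CTC (Pearson r = 0.96), His-GTG (0.95) and Gly-GCC (0.95). For Lys-TTT tRF5 they were the tRF5 of Arg-TCT (0.87), Thr-TGT (0.87) and Gly-TCC (0.86). The tRF5 of the lysine isoacceptors had an r of 0.74 with each other, and Lys-CTT tRF5 had an r of 0.45 with the other class of its own isoacceptor and of -0.13 with that of Lys-TTT. These correlations describe the 12 libraries, share their depth and treatment groups, and carry the low tRF5 level of CC replicate 2. Over the 11 libraries without it, r with Lys-CTT tRF5 was 0.91 for Glu-CTC, 0.98 for His-GTG and 0.90 for Gly-GCC, and r with Lys-TTT tRF5 was 0.83 for Arg-TCT, 0.74 for Thr-TGT and 0.72 for Gly-TCC. The r between the lysine tRF5 was then 0.43, and those of Lys-CTT tRF5 with the other classes were 0.45 and 0.0081.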

How the data were processed

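Small RNA was sequenced from 6 sperm and 6 TM4 libraries. The authors trimmed reads, kept lengths of 15 to 45 nt, and annotated them with SPORTS1.1, allowing 1 mismatch. The submitters' processing notes name FastQC 0.12.0, Trimmomatic 0.40 and mm10. Per library, the authors deposited estimated counts of each subclass without normalization, where a read that matches several subclasses is split. Here reads with and without a genome match were added, tRF3 included CCA-tail fragments, and other was the isoacceptor total minus its end fragments. The division of clean reads without rRNA gave RPM. Low-count tRFs (under 10 reads in 3 sperm or 2 TM4 libraries) were left out. Rounded counts entered the edgeR 4.0.16 test under R 4.3.3 (quasi-likelihood, Benjamini-Hochberg over all tRFs, clean reads without rRNA as library size, no further scaling), with TM4 groups in 1 model of 6 libraries. Called means an adjusted p under 0.05. Errors of log2 fold changes are standard errors.

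Shares in sperm were compared by exact 2-sided permutation tests, and those in TM4 cells, with 2 libraries a group, were not tested. The named items were all tRNA-Lys rows, and for likeness the 3 tRFs of other amino acids with the highest correlation. The members and lists were chosen with earlier results of these data known. Alternatives were DESeq2 1.42.0, TMM or DESeq2 size factors, library sizes with rRNA reads kept, no filter or at least 100 reads, genome-matched reads alone, tailed fragments as their own class, a replicate block, the compared groups alone, ComBat-seq (sva 3.50.0) and each library left out. Labels do not say whether TM4 replicates were separate cultures, so p-values measure the spread between these libraries, which may be technical. Genes were located in GRCm39 by a structural search (73-nt model), and differed in build from the files. Spread between replicates exceeded counting noise. The fits were tested on simulated data. Python 3.11.15, pandas 2.3.3 and matplotlib 3.10.9 were used.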

Additional observations from a re-analysis of the deposited data

Results flagged for a closer look

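Reads of the mitochondrial tRNA-Lys, a separate gene that lies outside every comparison above, differed between the diets. They were 51.5, 57.4 and 51.9 RPM in the CD libraries and 85.3, 62.4 and 65.99 RPM in the HFD libraries, so that all 3 HFD libraries lay above all 3 CD libraries, and the log2 ratio of the means was 0.41. Between the diets 26.8% of the cytosolic tRFs were higher in HFD without overlap, and their median log2 fold change was 0.44, so that 0.41 lies near it. This was noticed because the values lie in data the comparisons do not use and exceed the level in the control samples, and the difference was not tested. In TM4 cells the values were 58.5 and 34.5 RPM in Ctrl, 58.5 and 22.5 RPM in CC and 16.6 and 12.1 RPM in Ang OE, where the tailed fragments made up 72.3% and 68.1% of them against 29.6% to 32.2% in the 4 remaining TM4 libraries. With few reads behind them, the Wilson 95% intervals of these tailed shares were 3.30 to 7.11 percentage points wide.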

How the results depend on the processing

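Of the 709 values recomputed under an alternative, 618 were rated as unchanged. A log2 fold change was so rated if it kept direction and side of the threshold, and a share if it kept direction. A count of calls was so rated if it stayed equal or near, such as 2 or 4 beside 3. The cause of the remaining changes was not tested. The number of Lys tRFs called for HFD against CD was 0 throughout. For CC against Ctrl (0) it was 2 with ComBat-seq, 2 with a replicate block in Ctrl and CC alone (an alternative chosen after seeing the data), and 0 to 3 with a library left out. For Ang OE against Ctrl (0) it was 1 with TMM over tRFs, 1 with DESeq2 and its own size factors, 1 with the 2 compared groups alone, 2 with ComBat-seq and 0 to 1 with a library left out. For Ang OE against CC (3) it was 5 with DESeq2 size factors, beside 52.4% of all tRFs, and 2 to 4 with a library left out. For CD sperm against Ctrl TM4 (3) it was 6 with TMM, 6 with DESeq2 size factors and 5, now of 8 Lys classes, with tailed fragments as their own class, beside 75.5%, 78.3% and 82.3% of all tRFs called.

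Replicate numbers mark no named batch: same-numbered libraries had correlated deviations of -0.02, 0.21 and 0.18 between the diets, 0.77 between Ctrl and CC, -0.22 between Ctrl and Ang OE and -0.27 between CC and Ang OE. The replicate block gave 0, 0, 0 and 3 Lys calls for HFD, CC and Ang OE against their controls and Ang OE against CC, the same counts as without it. Calls over all tRFs moved more. HFD against CD gave 26 without CD replicate 2 against 0. CC against Ctrl (1) gave 6 with DESeq2, 41 without CC replicate 1, 50 with ComBat-seq and 48 with the block in Ctrl and CC alone. Ang OE against Ctrl (15) gave 25 with the replicate block, 32 with DESeq2, 40 with TMM, 63 with ComBat-seq and 3 to 45 with a library left out, the fewest without Ctrl replicate 2 and the most without CC replicate 2. Ang OE against CC (74) gave 48 without CC replicate 2 and 43 without Ang OE replicate 1.

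Signs turned as follows, in log2. With TMM over tRFs they were, for HFD against CD, -0.11 (Lys-CTT other), -0.19 (Lys-TTT tRF5), -0.044 (Lys-TTT tRF3), -0.31 (Lys-CTT total) and -0.040 (Lys-TTT total). For CC against Ctrl they were -0.23 (Lys-CTT other), -0.32 (Lys-TTT other) and -0.31 (Lys-TTT total), and for CD sperm against Ctrl TM4 -0.88 (Lys-CTT tRF3) and -1.03 (Lys-CTT other). With DESeq2 size factors they were -0.068 (Lys-TTT tRF5, HFD), -0.15 and -0.24 (Lys-CTT and Lys-TTT other, CC), and -0.58 and -0.77 (Lys-CTT tRF3 and other, sperm against TM4). With all clean reads as library size Lys-CTT other was -0.11 between the sources. With tailed fragments apart, untailed tRF3 was -1.12 (Lys-CTT) and -0.78 (Lys-TTT) for CC, and -1.16 (Lys-CTT) between the sources.

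With a library left out, the log2 ranges that crossed 0 in CC against Ctrl were -1.99 to 0.17 (Lys-CTT tRF5), -0.0012 to 0.39 (Lys-CTT other), -0.035 to 0.29 (Lys-TTT other), -0.84 to 0.24 (Lys-CTT total) and -0.018 to 0.29 (Lys-TTT total). In Ang OE against CC they were -0.076 to 0.25 (Lys-TTT other) and -0.080 to 0.23 (Lys-TTT total). Between the sources they were -0.36 to 0.15 (Lys-TTT tRF5) and -0.040 to 0.35 (Lys-CTT other). Differences in sperm shares turned in sign, in percentage points, for tRF3 of Lys-CTT (-0.000761 with tailed fragments as other, -0.117 to 0.627 with a library left out), tRF3 of Lys-TTT (-0.0198 likewise, -0.0606 with reads of a diet added, -1.96 to 2.14 with a library left out) and other of Lys-TTT (-1.31 to 4.37 with a library left out). With 3 or 2 libraries a group, the spread between libraries and not the depth limits these values.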
